A study of Homo sapiens with 6 samples.

Results

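TRAF1 to TRAF7, BIRC2 and BIRC3 are the genes of the TNF receptor-associated factors (TRAFs) and of the cellular inhibitors of apoptosis cIAP1 (BIRC2) and cIAP2 (BIRC3). They are 9 of the 54259 gene symbols in the count table of MDA-MB-231, an established line of human breast cancer cells. The 9 genes were chosen by symbol, with the shBry against shNC differences of these same counts already known. Their values in that comparison are therefore a description: no p-value is given for them, and whether a gene passed the call rule of the fit across all genes is stated without being read as evidence.

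TRAF proteins are adaptors that bind the tails of TNF receptor family members, and TRAF6 also serves the interleukin 1 and Toll-like receptors. TRAF2 brings the cIAP ubiquitin ligases to the receptor, where ubiquitin chains on RIPK1 lead to the kinases that activate NF-κB. A complex of TRAF2, TRAF3 and the cIAPs also keeps the kinase NIK (MAP3K14) low in resting cells, which holds back the alternative NF-κB pathway. TRAF1 and BIRC3 are textbook NF-κB target genes.

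The shBry cells carried a hairpin RNA directed at brachyury (gene T), and the shNC cells carried a negative control hairpin. There were 3 libraries of each, numbered 1 to 3. All 6 came from the same cell line, and no treatment, dose or time is given in the labels. The hairpin sequence, whether each cell population was a clone or a pool, and whether the 3 libraries came from separate cultures are not given in the sources used here, so the errors and p-values measure the spread between these samples, which may be technical.

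The libraries held 19684251 to 21718591 counts for shNC and 19319411 to 22985371 for shBry. Brachyury was listed at 0 counts in all 6 libraries, so the knockdown could not be seen in these counts. A count of 0 allows up to 0.131 to 0.155 CPM (the count scaled to a common library size), taken as 3 counts of the library. This limit uses the unscaled library total and covers counting error only. The series text calls the RNA pericardial whereas the sample labels name MDA-MB-231. The 7 markers of MDA-MB-231 (VIM, CD44 and others) summed to 7674 to 8024 CPM in shNC and 6661 to 6873 CPM in shBry. The 7 did not all differ in the same direction. VIM had 73994 to 86917 counts in shNC and 61637 to 73601 in shBry, whereas CD44 had 10172 to 11307 and 11761 to 15235. Of 5 luminal or epithelial markers, 3 had at most 10 counts in any library, while ERBB3 had 92 to 333 and EPCAM 21 to 113. Of 5 cardiac markers, 4 had at most 10 counts in any library. Of 6 mesothelial markers, 3 had at most 10, while MSLN was present at 552 to 1047 counts and LRRN4 at 61 to 185. CALB2, also mesothelial, had 30, 29 and 222 counts in shNC replicates 1 to 3 and 14 to 21 in shBry. Since TRAF1 and BIRC3 are also abundant in leukocytes, 9 leukocyte markers were examined: PTPRC, TYROBP, MS4A1 and CD2 were at 0 in every library, and the summed level was 0.472 to 1.01 CPM in shNC and 1.39 to 1.99 CPM in shBry. CD3D, a T cell receptor subunit, made up most of that sum, with 16, 9 and 13 counts in shNC and 27, 32 and 40 in shBry, and its part in the TRAF1 and BIRC3 values was not tested. In bulk RNA, fewer cells of a type and less RNA per cell cannot be told apart.

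TRAF1, BIRC3 and TRAF4 were higher in shBry, by 17.9-fold, 4.87-fold and 1.96-fold. TRAF2, TRAF6 and BIRC2 were 1.35-fold to 1.42-fold higher and TRAF7 was 1.40-fold lower, all within the fold limit, while TRAF3 and TRAF5 lay close to 0 on the log2 scale. A gene was called when its edgeR adjusted p was below 0.05 and its fold change above 1.5 in the fit across 15277 genes that passed the filter on low counts. All 9 genes passed that filter. Of the 9, 3 were called, all of them higher in shBry, while 32.4% of all tested genes were called, 17.1% higher and 15.2% lower. Without the fold limit 7 of the 9 were past the adjusted p limit, beside 53.3% of all tested genes. The 3 values of each group did not overlap for 7 of the 9, beside 59.5% of all tested genes. The median log2 fold change of the 9 genes was 0.47, and that of all tested genes was 0.03. Because the genes were chosen with this comparison known, nothing is read from these counts.

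**Figure D1:**
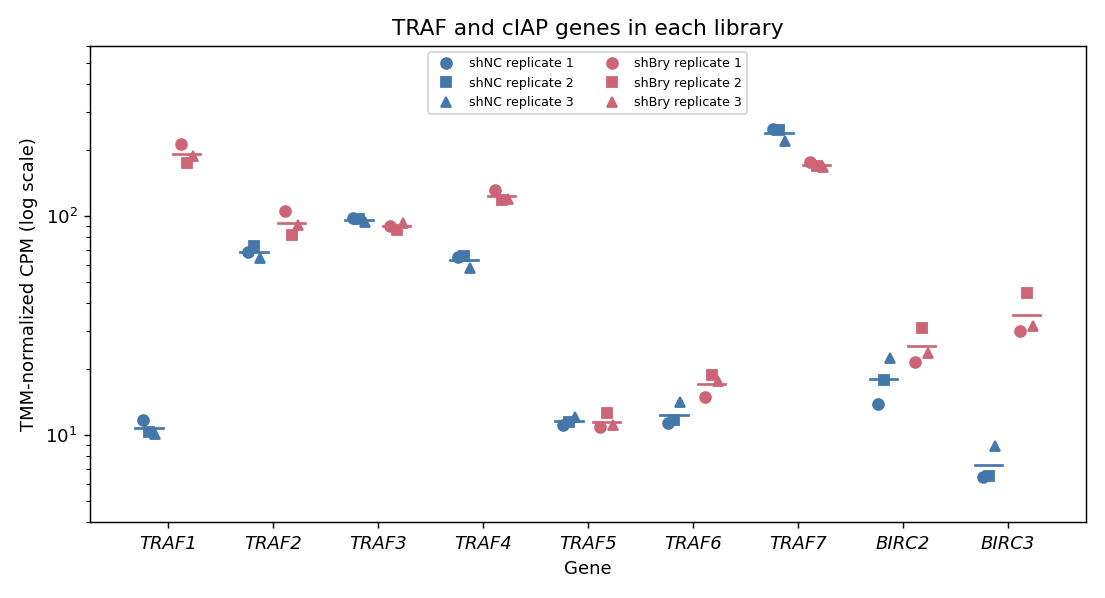
CPM of each TRAF and cIAP gene (log axis) in the 3 shNC and 3 shBry libraries, each point a library and each bar a group mean. The TRAF1 values lie at 10.1 to 11.8 CPM in shNC and 176 to 213 CPM in shBry, whereas the TRAF5 values of the groups overlap.

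TRAF1 lacks the RING domain of the other TRAFs and pairs with TRAF2. Its gene lies on chromosome 9 from 120902393 to 120929173, minus strand (GRCh38, GENCODE 29). It had 11.8, 10.4 and 10.1 CPM in shNC replicates 1, 2 and 3, and 213, 176 and 189 CPM in shBry replicates 1, 2 and 3. Every shBry library lay far above every shNC library, and the replicates of a group lay close together. The means were 10.7 ± 0.897 and 192 ± 18.8 CPM (SD, n = 3 each), from 202 to 257 and 3952 to 4262 counts. The log2 fold change was 4.16 ± 0.11 (SE), the 47th highest of 15277 tested genes, and ranged from 4.08 to 4.22 when each library was left out in turn. No stretch of 50 bases of its transcripts occurs in the transcripts of another gene.

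BIRC3, the ubiquitin ligase cIAP2, lies on chromosome 11 from 102317450 to 102339403, plus strand. It had 6.41, 6.48 and 8.96 CPM in shNC and 30.0, 44.5 and 31.7 CPM in shBry. All shBry values lay above all shNC values, with a wider spread within each group than for TRAF1: shNC replicate 3 and shBry replicate 2 were the highest of their groups. The means were 7.29 ± 1.45 and 35.4 ± 7.90 CPM, and the log2 fold change was 2.28 ± 0.18, with 2.07 to 2.43 when each library was left out. Even the lowest shBry library was 3.35-fold above the highest shNC library.

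BIRC2, the ubiquitin ligase cIAP1, starts 7807 bases beyond the end of BIRC3 on the same strand, from 102347211 to 102378670. It had 13.9, 17.9 and 22.4 CPM in shNC and 21.7, 31.0 and 23.9 CPM in shBry. The groups overlapped, since shBry replicate 1 lay below shNC replicate 3. The means were 18.1 ± 4.26 and 25.5 ± 4.88 CPM, and the log2 fold change was 0.50 ± 0.17, which was not called. Without shNC replicate 3 it was 0.66 and without shBry replicate 1 it was 0.61, and BIRC2 was called in those fits, whereas it was 0.32 without shBry replicate 2. Per exon length, the ratio of the BIRC3 to the BIRC2 level was 0.246 ± 0.0299 in shNC libraries and 0.833 ± 0.0321 in shBry libraries.

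TRAF2, which recruits the cIAPs, lies on chromosome 9 from 136881912 to 136926607, plus strand. It had 68.7, 73.2 and 64.2 CPM in shNC and 106, 81.8 and 90.8 CPM in shBry. The groups did not overlap, although shBry replicate 2 lay close to the highest shNC value. Its log2 fold change of 0.43 ± 0.10 was not called.

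TRAF3, which with TRAF2 targets NIK for degradation, lies on chromosome 14 from 102777476 to 102911500, plus strand. It had 98.0, 97.5 and 93.7 CPM in shNC and 90.5, 86.8 and 93.5 CPM in shBry. The groups were separated by only the gap between shNC replicate 3 and shBry replicate 3. The log2 fold change was -0.09 ± 0.08, with a 95% interval of -0.25 to 0.06. The interval uses a normal approximation, which makes it narrow for so few libraries.

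TRAF5, a close relative of TRAF2 that acts at several TNF receptors, lies on chromosome 1 from 211326615 to 211374946, plus strand. It had 11.1, 11.4 and 12.1 CPM in shNC and 10.9, 12.6 and 11.1 CPM in shBry. The groups overlapped throughout. On the log2 scale the fold change was 0.00 ± 0.14, with a 95% interval of -0.27 to 0.27 by the same normal approximation. The sign of the log2 fold change differed in 4 of 12 alternative settings.

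TRAF6, the ubiquitin ligase of interleukin 1 and Toll-like receptor signalling, lies on chromosome 11 from 36487027 to 36510272, minus strand. It had 11.4, 11.7 and 14.1 CPM in shNC and 14.9, 18.8 and 17.6 CPM in shBry. The groups did not overlap, and the lowest shBry library lay just above shNC replicate 3. Its log2 fold change of 0.47 ± 0.14 was not called. A share of 4.99% of the 50-base stretches of its transcripts occurs elsewhere, in part in its processed copy TRAF6P1, which was at 0 counts in every library.

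TRAF4, a TRAF of epithelial cells that is often abundant in carcinomas, lies on chromosome 17 from 28743984 to 28750958, plus strand. It had 65.2, 65.7 and 57.8 CPM in shNC and 132, 118 and 120 CPM in shBry. The groups lay well apart, with means of 62.9 ± 4.40 and 123 ± 7.13 CPM. The log2 fold change was 0.97 ± 0.09, ranged from 0.89 to 0.99 when each library was left out, and stayed below a fold limit of 2. Exons of other genes cover 16.9% of its exon bases, and the strand setting of the counting is not given in the sources used here. Its counts could therefore hold reads of those genes or lack reads over the shared bases.

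TRAF7, which has WD40 repeats in place of the TRAF domain, lies on chromosome 16 from 2155698 to 2178129, plus strand. It had 251, 247 and 222 CPM in shNC and 177, 170 and 168 CPM in shBry. Every shBry library lay below every shNC library, with means of 240 ± 15.7 and 172 ± 4.48 CPM. The log2 fold change was -0.48 ± 0.08, within the fold limit and so not called. Exons of CASKIN1 cover 21.2% of the TRAF7 exon bases, and CASKIN1 had 19 to 78 counts per library, against 3284 or more for TRAF7. As for TRAF4, the strand setting is not given, so the counts of both genes could lack reads over the shared bases.

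**Figure D2:**
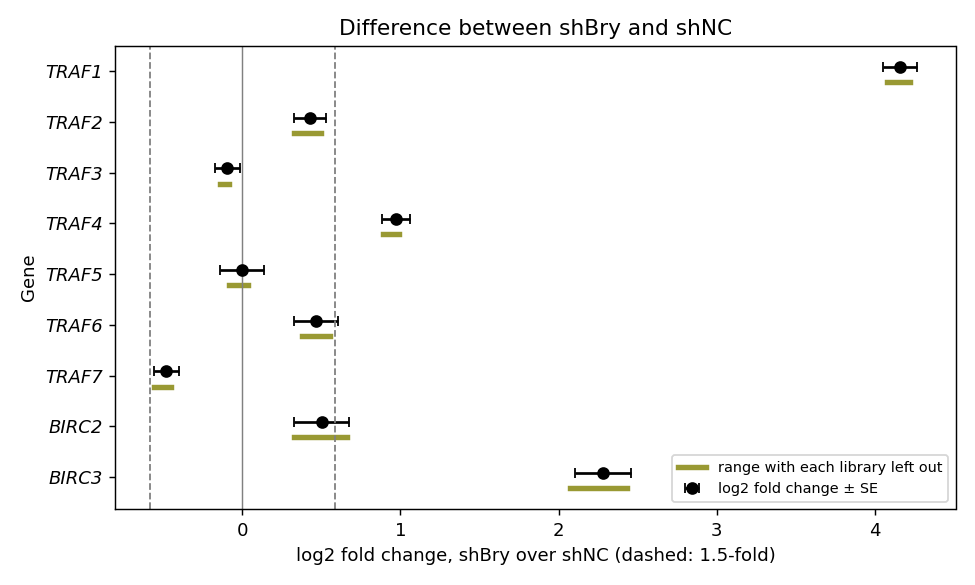
log2 fold change of shBry over shNC for each TRAF and cIAP gene, with its standard error (black), the range when each library was left out in turn (olive bars) and the fold limit of 1.5 (dashed lines). TRAF1 (4.16), BIRC3 (2.28) and TRAF4 (0.97) lie beyond the limit, and the other 6 genes lie within it.

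The regions before the starts of BIRC3, TRAF1 and TRAF3 are shown because BIRC3 and TRAF1 had the largest fold changes, while TRAF3 is, besides BIRC3, the only gene of the 9 with a match to the NF-κB consensus. The sequences are RefSeq promoter windows on GRCh38.p14, cut before the first annotated transcript start and written in the direction of the gene, with matches to the consensus in capitals. They are chr11:102317234-102317449 (plus strand, BIRC3), chr9:120929174-120929421 (minus strand, TRAF1) and chr14:102777199-102777448 (plus strand, TRAF3).
BIRC3: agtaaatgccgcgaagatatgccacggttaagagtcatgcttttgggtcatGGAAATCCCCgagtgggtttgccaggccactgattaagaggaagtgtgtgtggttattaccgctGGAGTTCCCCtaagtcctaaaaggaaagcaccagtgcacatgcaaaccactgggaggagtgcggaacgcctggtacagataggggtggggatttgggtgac
TRAF1: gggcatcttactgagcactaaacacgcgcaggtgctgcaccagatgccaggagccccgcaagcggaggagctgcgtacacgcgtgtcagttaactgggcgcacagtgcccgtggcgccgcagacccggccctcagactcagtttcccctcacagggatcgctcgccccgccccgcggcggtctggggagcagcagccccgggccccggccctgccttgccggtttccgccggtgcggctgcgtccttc
TRAF3: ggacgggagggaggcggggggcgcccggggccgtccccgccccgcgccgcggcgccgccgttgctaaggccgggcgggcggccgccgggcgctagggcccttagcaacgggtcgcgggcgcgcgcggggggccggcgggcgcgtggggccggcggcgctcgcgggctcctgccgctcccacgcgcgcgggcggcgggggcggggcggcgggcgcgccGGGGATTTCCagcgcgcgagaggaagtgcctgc
The consensus was GGG, a purine, any base, A or T, a pair of pyrimidines and CC, searched on both strands of windows that run from 250 bases before to 50 bases after each RefSeq start. BIRC3 held GGAAATCCCC at -199 to -190 and GGAGTTCCCC at -135 to -126, and TRAF3 held GGGGATTTCC at -33 to -24, counted from the RefSeq start. These were 2 of the 14 windows of the 9 genes, beside 5.91% of all 35116 windows. A looser consensus (GG, a pair of purines, any pair of bases, a pair of pyrimidines and CC), which includes the first, matched at the same places and in 14.0% of all windows. The AP-1 letters TGANTCA were in 0 of the 14 windows and in 7.71% of all windows. No match was found in any of the 3 TRAF1 windows, of which the most upstream is shown. This says only that these letters are not in them, and which start the cells use was not tested. A match is a description of sequence, and whether it bears on the level of a gene was not tested. TRAF3 had a log2 fold change of -0.09 and BIRC3, which also holds matches, had 2.28.

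The genes can be compared with each other only per length, as counts per kilobase of merged exons and scaled to the library total (RPKM). In shNC the order of the mean levels was TRAF7 (53.7 ± 3.18 RPKM), TRAF2 (18.9 ± 1.08), TRAF4 (13.8 ± 0.860), TRAF3 (11.7 ± 0.217), BIRC2 (4.01 ± 0.969), TRAF6 (2.57 ± 0.327), TRAF1 (1.68 ± 0.138), TRAF5 (1.29 ± 0.0668) and BIRC3 (0.975 ± 0.203). No neighbours in that order overlapped in their 3 values. In shBry TRAF1 stood at rank 2 with 29.6 ± 1.90 RPKM, below TRAF7 (38.0 ± 1.10) and above TRAF4 (26.6 ± 0.848) and TRAF2 (25.1 ± 2.39). TRAF4 and TRAF2 overlapped there, as did BIRC2 (5.62 ± 1.29) with BIRC3 (4.70 ± 1.23) and BIRC3 with TRAF6 (3.50 ± 0.528). With the longest transcript as length, TRAF1 stood at rank 8 in shNC and rank 4 in shBry, and BIRC3 (6.80 RPKM) stood above BIRC2 (6.25) in shBry, so those places depend on the length used.

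TRAF1 made up 1.72%, 1.51% and 1.62% of the summed TRAF levels in shNC replicates 1 to 3, and 22.7%, 21.1% and 21.9% in shBry. TRAF7 made up 51.8 ± 0.795% in shNC and 28.2 ± 1.13% in shBry. The sum of the 7 TRAF levels was 98.0 to 107 RPKM in shNC libraries (mean 104) and 132 to 139 in shBry libraries (mean 135). Without TRAF1 it was 102 ± 4.70 and 105 ± 2.30, so that the sums differed mainly by TRAF1. Differences of the other TRAF levels went in opposite directions within that remainder. TRAF7 went from 53.7 to 38.0 RPKM, while TRAF4 went from 13.8 to 26.6 and TRAF2 from 18.9 to 25.1. The ratio of TRAF1 to TRAF2 levels went from 0.0891 ± 0.00855 to 1.18 ± 0.0374. With the longest transcript as length, TRAF1 stayed below TRAF2 in shBry (30.2 against 40.5 RPKM). The ratio and the shares therefore depend on the length used. The summed cIAP level was 4.99 ± 1.16 RPKM in shNC and 10.3 ± 2.51 in shBry.

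**Figure D3:**
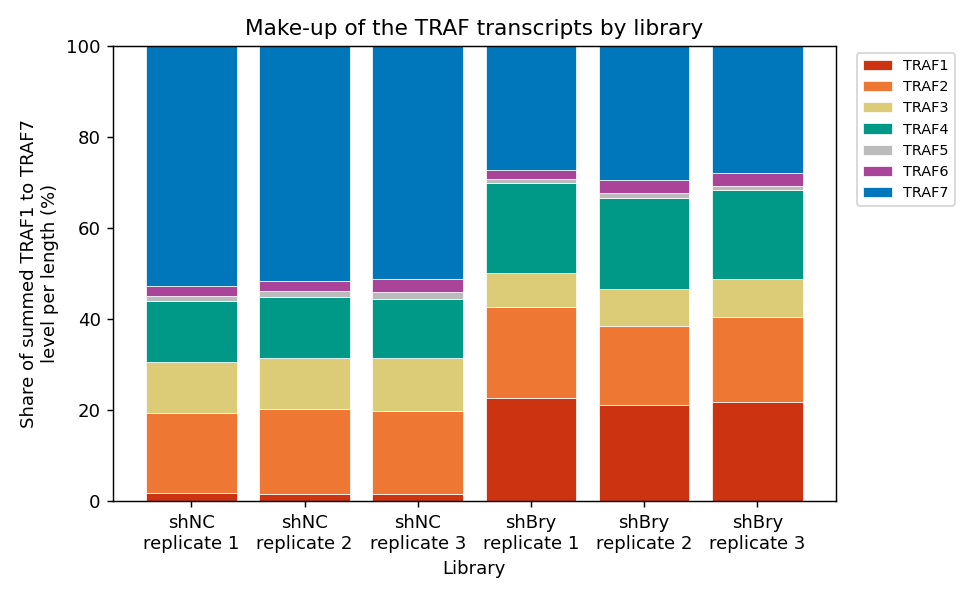
Share of each TRAF gene in the summed TRAF level per exon length (percent) in each of the 6 libraries. TRAF1 takes 1.51% to 1.72% of the sum in shNC libraries and 21.1% to 22.7% in shBry libraries.

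Deviations of a library from its group mean went with the GC content of the gene in most libraries, in either direction, but not in shBry replicate 3. The longest transcripts of BIRC3 and BIRC2 have 34.8% and 38.0% GC, and those of TRAF2 and TRAF7 have 61.3% and 60.6%. In shNC replicate 3, BIRC2 and BIRC3 lay 0.34 and 0.31 above their group means on the log2 scale, and TRAF2, TRAF4 and TRAF7 lay below theirs (-0.10, -0.12 and -0.11). In shBry replicate 2, BIRC3 and BIRC2 lay 0.35 and 0.30 above, and TRAF2 and TRAF1 lay below (-0.17 and -0.13), while TRAF4 (-0.06) and TRAF7 (-0.01) lay closer to their group means. Tested genes within 2 percentage points of the GC content of BIRC3 had medians of 0.25 and 0.24 in these libraries, so that other genes of like GC content deviated the same way. Over 13619 genes with a GC value, which are not independent replicates, Pearson's r of the deviation with GC content was 0.35, 0.24 and -0.52 in shNC replicates 1 to 3 and 0.33, -0.31 and 0.01 in shBry replicates 1 to 3. When the median log2 fold change of genes of like GC content was subtracted, a step added after the data were seen, TRAF1 was at 4.25, BIRC3 at 2.02, TRAF4 at 1.07, TRAF7 at -0.37 and BIRC2 at 0.31.

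**Figure D4:**
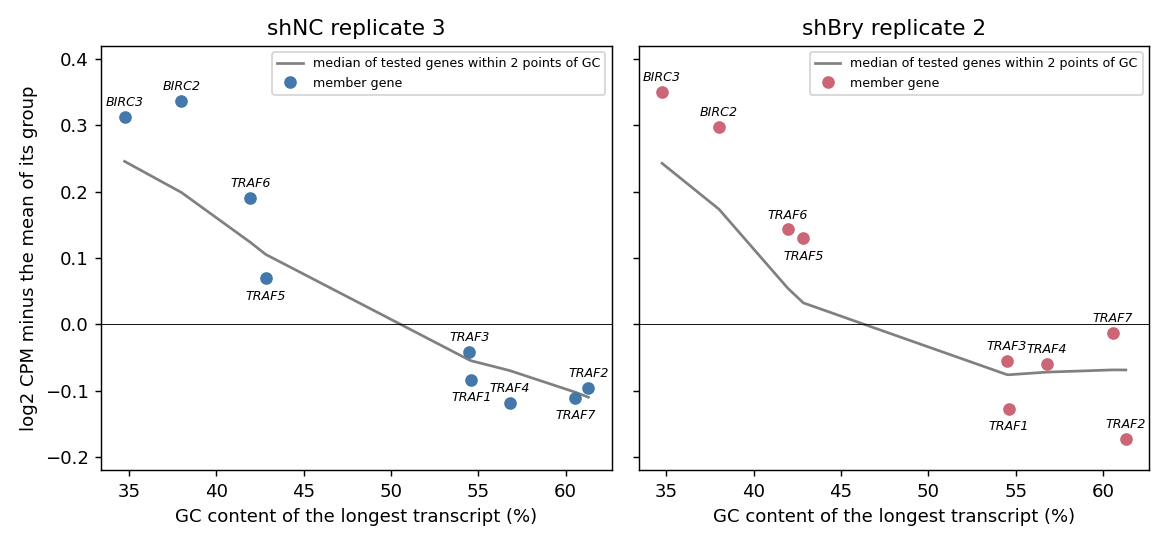
Deviation of log2 CPM from the group mean against GC content (%) of the longest transcript for the 9 genes in shNC replicate 3 and shBry replicate 2, with the median of tested genes of like GC content as a line. BIRC2 and BIRC3, lowest in GC content, lie highest in both libraries.

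The genes whose pattern over the 6 libraries lay closest to TRAF1, out of 13737 candidates and by Euclidean distance of centred log2 CPM, were CXCL3 (0.38), GADD45A (0.46) and CHAC1 (0.62). The values were not scaled, so this distance mainly picks genes with a group difference of like size. Shared regulation was not tested. CXCL3, a chemokine that attracts neutrophils, had 0.804 to 1.05 CPM in shNC and 20.6 to 21.5 CPM in shBry. The log2 fold change of GADD45A, a growth arrest gene, was 3.82, and that of CHAC1, a gene of the amino acid stress response, was 3.69.

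Other genes of the same pathway were taken from a list of 87 signalling partners in 8 roles, written with earlier results of these data known. Of these, 74 passed the filter on low counts, and the 13 others had at most 10 counts in any library. Of the 74, 25 were called (33.8%), 18 higher (24.3%) and 7 lower (9.46%) in shBry, beside the 32.4%, 17.1% and 15.2% of all tested genes given above. The median log2 fold change of the 74 was 0.09. The largest share was among NF-κB subunits and inhibitors, with 5 of 8 called, all higher, and a median of 0.80. By role, 33.3% of receptors, 40% of adaptors, 20% of ubiquitin enzymes, 30% of brakes and 7.69% of downstream kinases were called. Among other IAPs and antagonists it was 42.9%, and among death-complex genes 50%, beside 32.4% of all tested genes. No set test was made, and the list was not independent of the data. The adjusted p-values of partners below come from the fit across all genes. They are a description and not a test of these genes, which were picked with this contrast known.

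Of the 21 receptors, 12 were tested, and 3 were called higher and 1 lower (33.3% called, beside 32.4% of all tested genes). TNFRSF9, a receptor that binds TRAF1 and TRAF2, went from 4.08 ± 0.281 to 26.5 ± 2.61 CPM (log2 fold change 2.70 ± 0.14; adjusted p = 2.2e-09 by edgeR's quasi-likelihood test). TNFRSF12A, the receptor of TWEAK, went from 136 ± 17.3 to 414 ± 34.8 CPM (1.61 ± 0.10; edgeR adjusted p = 1.3e-08). TNFRSF1B, the second TNF receptor, had a log2 fold change of 1.26 ± 0.20 (edgeR adjusted p = 0.00011), and TLR4 was the receptor called lower. The median of the 12 tested receptors was -0.27, below 0 in contrast to these 3.

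Of 15 tested adaptors, 3 were called higher and 3 lower. The higher ones named by size were IRAK2, a kinase of the interleukin 1 receptor complex (35.3 ± 2.53 to 114 ± 2.30 CPM; log2 fold change 1.69, edgeR adjusted p = 2e-09), RIPK2 (0.93, 6.1e-06) and SQSTM1, an autophagy receptor that binds TRAF6 (0.79, 3.9e-06). TRADD, TRAFD1 and MAVS were called lower, TRADD in only 4 of the 6 fits that left out a library (-0.69 to -0.49). Among 5 ubiquitin enzymes, RBCK1, a subunit of the linear ubiquitin ligase, was called higher (112 ± 8.79 to 294 ± 19.3 CPM; 1.39, edgeR adjusted p = 1.4e-08), and the other 4 were not called.

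Of 10 brakes and deubiquitinases, 3 were called, all higher (30% called, beside 32.4% of all tested genes). TNFAIP3, a ubiquitin-editing enzyme that ends NF-κB signalling, went from 7.61 ± 0.235 to 36.8 ± 0.947 CPM (log2 fold change 2.27 ± 0.12; edgeR adjusted p = 1.6e-09). CYLD and TNIP2 had log2 fold changes of 0.75 (edgeR adjusted p = 3e-06) and 0.77 (8.5e-06). Of 13 downstream kinases, 1 was called, MAP3K3, which was lower (-0.86, edgeR adjusted p = 1.8e-06). IKBKG (-0.53) stayed uncalled in only 2 of the 6 fits that left out a library, and TAB1 (-0.57) in 4 of the 6. MAP3K14 (NIK), the kinase that TRAF2, TRAF3 and the cIAPs act on, had a log2 fold change of -0.04 and was not called, although protein level was not measured here.

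Of 7 tested genes of other IAPs and their antagonists, 2 were called higher and 1 lower. BIRC5 (survivin), which acts in cell division, went from 161 ± 7.78 to 51.5 ± 4.16 CPM (log2 fold change -1.64; edgeR adjusted p = 2.9e-09). XIAP, the caspase inhibitor, had 0.90 ± 0.18 (edgeR adjusted p = 0.00083). Its shBry values were 23.7, 36.9 and 23.6 CPM, and without shBry replicate 2 its log2 fold change was 0.64. XAF1, an antagonist of XIAP, had 1.21 ± 0.27 (edgeR adjusted p = 0.0019) at a low level, 17 to 62 counts per library. Of 4 tested death-complex genes, CFLAR, an inhibitor of caspase 8 activation, was called higher (0.75, edgeR adjusted p = 2.7e-06) and CASP10 was called lower (-0.63, 0.0012), but its log2 fold change was -0.57 and not called without shBry replicate 1.

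RELB, a subunit of the alternative NF-κB pathway, went from 26.3 ± 3.31 to 110 ± 7.34 CPM (log2 fold change 2.05; edgeR adjusted p = 1.9e-09), and NFKB2, its usual partner, went from 110 ± 7.66 to 340 ± 25.6 CPM (1.62, 2.8e-09). NFKBIE, an inhibitor, had 1.32 (edgeR adjusted p = 4.1e-07). NFKBIA and REL were the other 2 called higher, and REL was called in only 3 of the 6 fits that left out a library.

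**Figure D5:**
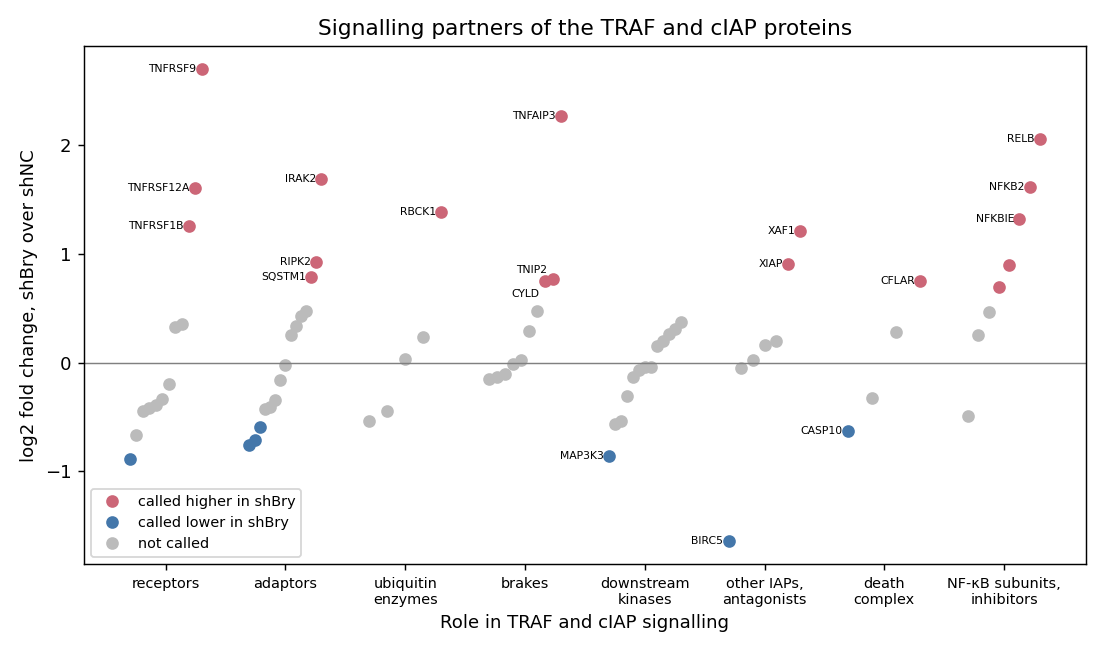
log2 fold change of shBry over shNC for 74 tested signalling partners, by role, with called genes in colour and the named ones labelled. TNFRSF9 (2.70), TNFAIP3 (2.27) and RELB (2.05) lie highest, and BIRC5 (-1.64) lies lowest.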

How the data were processed

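RNA-Sequence libraries of MDA-MB-231 shBry (3) and shNC (3) were grouped by the hairpin given in the labels. The authors deposited raw counts, whole numbers of reads per gene symbol with no normalization, in 1 table, whose 9 unnamed columns hold no value. Alignment with HISAT2 2.0.4 to GRCh38 and counting with HTSeq are named in the submitters' processing notes. The gene annotation and strand setting are not given in the sources used here, so how reads over overlapping genes were counted or set aside is not known.

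From the deposited counts, genes were filtered (filterByExpr, minimum count 10), scaled by TMM and fitted with edgeR 4.0.16 (quasi-likelihood, R 4.3.3), with Benjamini-Hochberg adjustment over 15277 genes. The call limits were 0.05 on the adjusted p and 1.5 on the fold change. CPM are TMM-scaled, except the limit given for a count of 0. That limit and the levels per length use unscaled library totals. The fit was tested on simulated data. The 9 genes and all lists were chosen with earlier results of these data known. Named partners were the 3 called genes of at least 1 CPM with the largest log2 fold change in each role, and every called brake. Genes named beyond that rule (TLR4, TRADD, TRAFD1, MAVS, NFKBIA, REL, MAP3K14, IKBKG, TAB1 and the neighbours of TRAF1 and the cIAP genes) were chosen after their values were seen. Annotation was GENCODE 29, matched by symbol. Promoter windows were from RefSeq, where all 9 genes matched.

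The fit was repeated with DESeq2 1.42.0, without TMM, with limma-voom (limma 3.58.1), other filters and thresholds, a replicate block, and each library left out, and levels with the longest transcript; a GC correction was added after the data were seen. Protein identity between the members was planned and not run, since no protein table was used here. A marker of the leukocyte list is not reported here.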

Additional observations from a re-analysis of the deposited data

How the results depend on the processing

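TRAF1, BIRC3 and TRAF4 were called, and 3 of the 9 genes in all, without TMM, with DESeq2, limma-voom, either other expression filter, unadjusted p or the replicate block. With a fold limit of 2, TRAF1 and BIRC3 were called, with 2297 genes and 11 partners in all. Without a fold limit, 7 of the 9 genes, 8139 genes and 46 partners were past the limit. When each library was left out in turn, 4587 to 5025 genes, 3 to 4 of the 9 genes and 24 to 27 partners were called, BIRC2 being the added gene. With the replicate block, 4914 genes, 3 of the 9 genes and 25 partners were called, and no call of the 9 genes changed. Deviations of same-numbered libraries correlated at 0.18, -0.08 and -0.03. Since the deviations also went with GC content in most libraries, these correlations cannot decide whether the numbers pair the samples. The main fit used no pairing. Over the 108 values of these settings (12 for each gene), the log2 fold change kept its sign for 8 of the 9 genes, and that of TRAF5 changed sign in 4 of 12, between -0.08 and 0.04. With the GC correction, TRAF3 was at -0.01 and TRAF7 at -0.37. Libraries of the same group differed by a chi-square per degree of freedom of 4.70 to 15.5, so that their spread was above counting error. Other differences between the shBry and shNC cell populations cannot be told apart from the hairpin.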

Other observations

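Genes next to TRAF1 and the cIAP genes were examined after the values above were seen, so their adjusted p-values are a description only. PHF19, 7496 bases from TRAF1, went from 136 to 91.1 CPM (log2 fold change -0.58 ± 0.09; edgeR adjusted p = 6.3e-05, not called), and C5, 23161 bases away on the other side, had -0.80 ± 0.29 (edgeR adjusted p = 0.031, called lower), whereas TRAF1 between them had 4.16. YAP1, before BIRC3, had 0.55 ± 0.10 (edgeR adjusted p = 0.00038, not called) and TMEM123, after BIRC2, had -0.07 ± 0.13 (edgeR adjusted p = 0.68).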
